A study of Mus musculus with 4 samples.

Results

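The genes described here encode the machinery that docks, primes, fuses and recycles synaptic vesicles. They are a list of 42 genes, matched by gene symbol to the array, and each was represented by its brightest probe. All 42 were well above background on all 4 arrays, among 20655 gene names measured that way. The tissue was prefrontal cortex of B6J mice aged 3 months. Diets based on starch or sucrose began on postnatal day 21 and lasted about 70 days. The mice were wild-type or heterozygous at Glo1, which encodes glyoxalase 1, an enzyme that clears methylglyoxal. The groups were wild-type on starch, wild-type on sucrose, Glo1 heterozygous on starch and Glo1 heterozygous on sucrose, and each was measured as 1 pool of 3 RNA samples on 1 array. The labels do not give the Glo1 allele or the cells in which it acts. With 1 array per group, a difference between groups has no replicate error, and pooling hides the spread between mice.

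Between 77.6% and 80.2% of the non-control spots of an array were well above background, and no spot was saturated. Levels below are signals as multiples of the 75th percentile of the array, always in the order wild-type starch, wild-type sucrose, heterozygous starch and heterozygous sucrose, and changes are log2 differences of these levels. Glo1 itself had levels of 4.04, 5.53, 2.74 and 3.04, and both heterozygous arrays lay below both wild-type arrays, as the genotype labels have it. Markers of cortical excitatory neurons (10 of 10) and of inhibitory neurons (9 of 9) were well above background on all arrays. So were all 12 striatum markers, all 5 olfactory bulb markers and 8 of 9 choroid plexus markers, whose levels differed between arrays. The 4 arrays lay at 4 positions of a slide, so position and group cannot be told apart.

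A synaptic vesicle fuses when the SNARE protein synaptobrevin on the vesicle zips together with syntaxin and SNAP-25 on the plasma membrane. Synaptotagmins sense the incoming calcium and complexins hold the partly assembled complex ready, while NSF and its SNAP adaptors take used complexes apart. RIM, Munc13, Bassoon and Piccolo organise the active zone where this happens, synapsins and Rab3 proteins handle the vesicle pool, and dynamin and amphiphysin retrieve membrane. Most of these genes are known for their expression in neurons, but some, such as Nsf, Napa, Sypl and Syt11, are expressed in other cells too. In RNA of whole tissue, fewer cells of a type and less RNA per cell cannot be told apart.

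The probe sequences bear on how the values of the Rab3 genes and Syt2 can be read, and are given as in the scanner files, from the 5′ end. A probe of Rab3a and a probe of Rab3c, paralogous vesicle GTPases, shared 43 of 55 aligned bases (78.2%). They are printed whole, with the longest run they share, 14 bases, in capitals.
Rab3a, A_51_P110629: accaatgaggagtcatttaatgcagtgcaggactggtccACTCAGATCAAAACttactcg
Rab3c, A_51_P481978: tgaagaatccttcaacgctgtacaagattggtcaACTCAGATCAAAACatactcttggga
Neither is the brightest probe of its gene, so the Rab3 levels below come from other sequences, and the changes at these probes are given separately. Syt2 (synaptotagmin 2) has 3 probes that gave different answers, and their first 30 bases identify them.
A_55_P2720010: cttttctaatgttctatgtctgggggcttg
A_55_P2017894: agagtttgagaacccagcatggagaagctg
A_51_P330749: ttttgaacatctctcttcattttctggaat
The first of these is the brightest and lies on chromosome 1 at 136659097 to 136659156, separated by 13102 and 14286 bases from the others, at 136645935 to 136645994 and 136644751 to 136644810.

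The release genes as a list were steadier than all genes. The brightest quartile was steadier than the list, but the list also holds dimmer genes. Genes of like signal were thus not compared. For 27 of the 42 the highest and lowest arrays lay within 0.25 on the log2 scale (46.3% of all genes and 74% of the brightest quartile), and the median range was 0.22, against 0.27 for all genes and 0.18 for the brightest quartile of genes, to which 27 of the 42 belong. Vamp2, which encodes the main synaptobrevin of forebrain vesicles, had levels of 22.5, 23.7, 23.1 and 23.3, and Snap25 had 52.5, 52.6, 50.8 and 48.8. Syt7 (0.591, 0.575, 0.591 and 0.585) and Sypl (2.10, 2.17, 2.10 and 2.12) were the steadiest of all by their brightest probe, while the other Sypl probes ranged over 0.22 and 0.27. Repeated spots of a probe on 1 array predict an SD of 0.07 for a difference between arrays in the brightest quartile of genes, from 290 repeated probes, and of 0.11 and 0.12 in the next quartiles, from 5 and 6 probes. This covers spot-to-spot error only. Only 3 of the 42 passed 1.5-fold in any of the 4 comparisons that differ in 1 factor, Doc2b, Cplx3 and Unc13c, where 12.5% of all genes and 1.9% of the brightest quartile did. None passed 2-fold, where the share of all genes was 1.48% for diet in wild-type mice, 1.77% for diet in heterozygous mice, 0.813% for genotype on starch and 1.71% for genotype on sucrose.

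**Figure D1:**
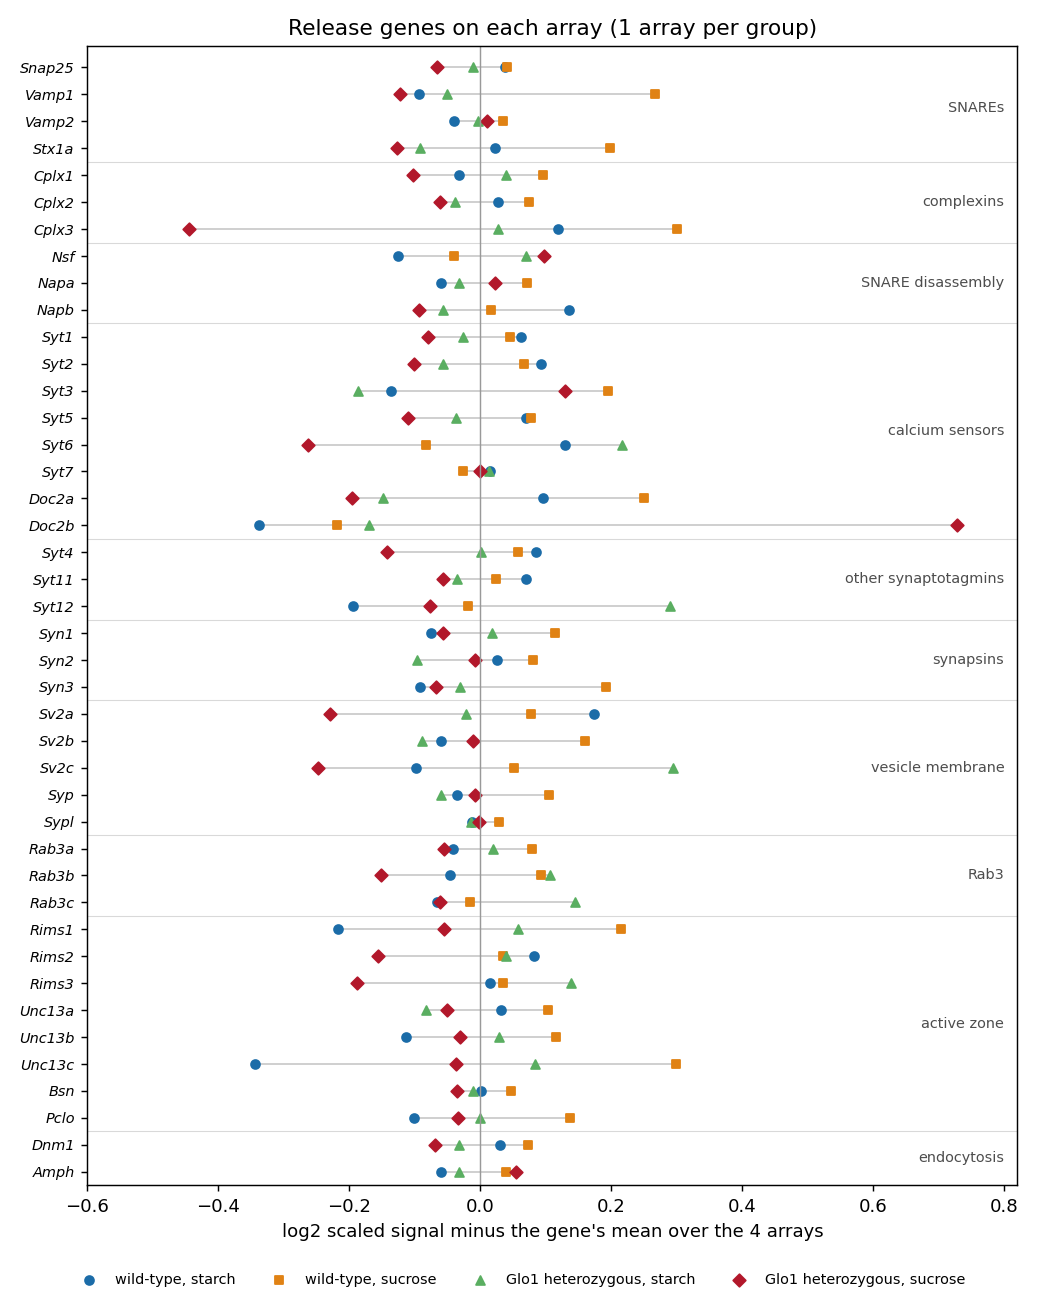
Each row is a gene and each point an array, placed by the log2 scaled signal minus the gene's mean over the 4 arrays; genes are ordered by role. Wild-type sucrose squares lie rightmost for 25 of 42 genes and heterozygous sucrose diamonds leftmost for 22, while Doc2b has its heterozygous sucrose point far to the right.

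Small differences ran mostly one way in 3 of the 4 comparisons. In wild-type mice 33 of 42 genes were higher on sucrose than on starch (49.9% of all genes and 55.7% of the brightest quartile were above 0), with a median of 0.09 against 0.00 for all genes and 0.02 for the brightest quartile. In heterozygous mice 31 of 42 were lower on sucrose (49.9% and 60.1% were below 0), with a median of -0.05 against 0.00 and -0.03. Heterozygous mice had lower values than wild-type mice on sucrose for 38 of 42 genes (54.9% and 69.9% were below 0), with a median of -0.15 against -0.02 and -0.05. On starch the genotypes were split, with 22 of 42 lower (54% and 51.6% were below 0) and a median of 0.00. The median size of a change for genotype on sucrose was 0.16 for the release genes, 0.11 for all genes and 0.08 for the brightest quartile. The bright genes of the array leaned the same way as the release genes, but less far.

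The count for genotype on sucrose was 35 of 42 after quantile or cyclic loess normalisation, and the median of the release genes was then -0.10 in both, against -0.01 and 0.00 for the brightest quartile. Both medians were thus nearer to 0 than before, by a like amount. The count of genes lower on sucrose in heterozygous mice depended more on scaling, with 23 of 42 under both of these methods. The share of the brightest quartile below 0 moved too, from 60.1% to 47.9% under quantile and 46.9% under cyclic loess normalisation. On starch, 14 of 42 were then lower in heterozygous mice under loess and 16 under quantile normalisation, with a median of 0.05 in both. Of the brightest quartile, 34.5% and 37.9% were then below 0, with medians of 0.05 and 0.04, so the release genes lay close to the bright genes in this comparison. The mean of all probes of a gene gave 31 of 42 lower for genotype on sucrose. The diet comparison in wild-type mice and the genotype comparison on sucrose share the wild-type sucrose array. The heterozygous sucrose array, on which choroid plexus markers were high, is shared by the diet comparison in heterozygous mice and the genotype comparison on sucrose. The wild-type arrays differed in markers too, with diet medians of 0.96 for striatum, -2.71 for olfactory bulb and 0.59 for choroid plexus. The part of these tissues in the counts was not tested. Per gene, the wild-type sucrose array was the highest for 25 of 42 (26.6% of all genes, 35.4% of the brightest quartile) and the heterozygous sucrose array the lowest for 22 of 42 (26.3% and 37.9%).

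**Figure D2:**
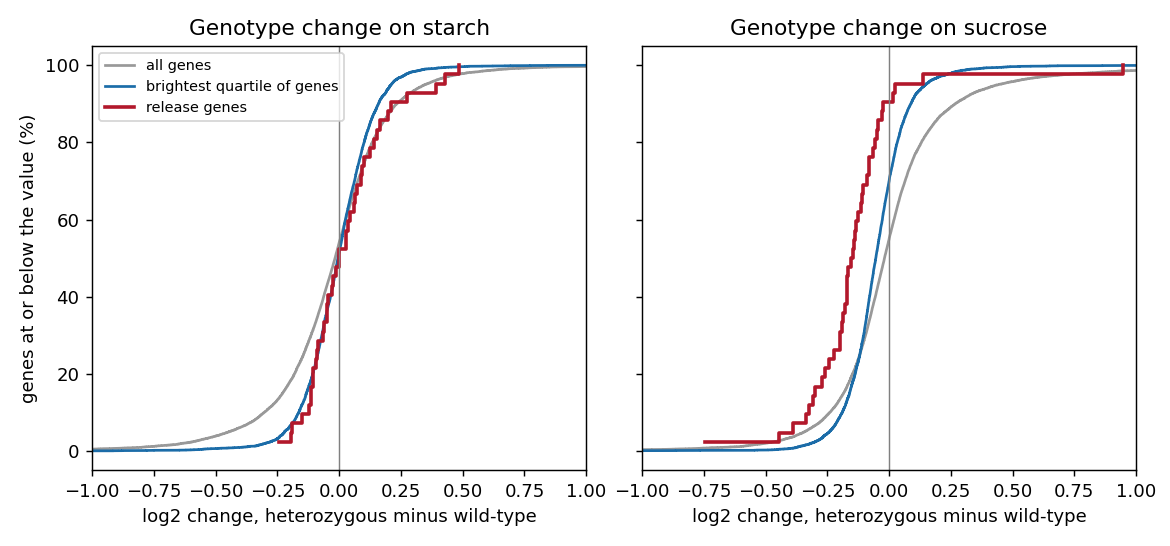
Cumulative curves of the log2 genotype change (heterozygous minus wild-type) for the starch diet (left) and the sucrose diet (right), over the 42 release genes, all genes and the brightest quartile of genes. On sucrose the release genes reach 38 of 42 before 0, and on starch the 3 curves cross 0 close together.

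Marker lists of the cell types in cortex differed in how far they went with these values. Their medians follow in the order diet in wild-type mice, diet in heterozygous mice, genotype on starch and genotype on sucrose. Excitatory neuron markers had medians of 0.22, -0.12, 0.10 and -0.23, with 10, 4, 9 and 3 of 10 above 0, and a summed level of 42.6, 50.7, 45.8 and 43.6. Pan-neuronal markers had medians of 0.02, -0.08, 0.00 and -0.10, with 7, 3, 5 and 1 of 10 above 0, and a summed level of 309, 317, 309 and 300.1. Inhibitory neuron markers had medians of -0.06, -0.13, 0.03 and -0.19, with 4, 3, 5 and 2 of 9 above 0, and a summed level of 116, 119, 118 and 106. The neuronal lists were thus mostly below 0 for genotype on sucrose, like the release genes. So were 54.9% of all genes, 69.9% of the brightest quartile and all 5 microglia markers. For diet in wild-type mice the neuronal lists differed from each other. Oligodendrocyte markers had medians of -0.10, -0.03, -0.03 and 0.08, with 0, 3, 2 and 5 of 6 above 0, and a summed level of 85.9, 77.5, 85.8 and 80.1. Astrocyte markers had medians of -0.17, -0.04, -0.02 and 0.08, with 1, 3, 3 and 3 of 6 above 0. Microglia markers had medians of -0.05, -0.04, -0.10 and -0.10, with 2, 1, 1 and 0 of 5 above 0, and endothelium markers 0.04, -0.04, 0.11 and 0.16, with 3, 2, 3 and 4 of 5 above 0. Striatum markers differed far more than any of these, with medians of 0.96, -0.86, 0.69 and -1.26, with 11, 1, 10 and 0 of 12 above 0, and a summed level of 30.5, 49.2, 45.2 and 26.3. On starch, where most striatum markers were above 0, the release genes were split. The part of these cell populations in the release gene values was not tested.

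**Figure D3:**
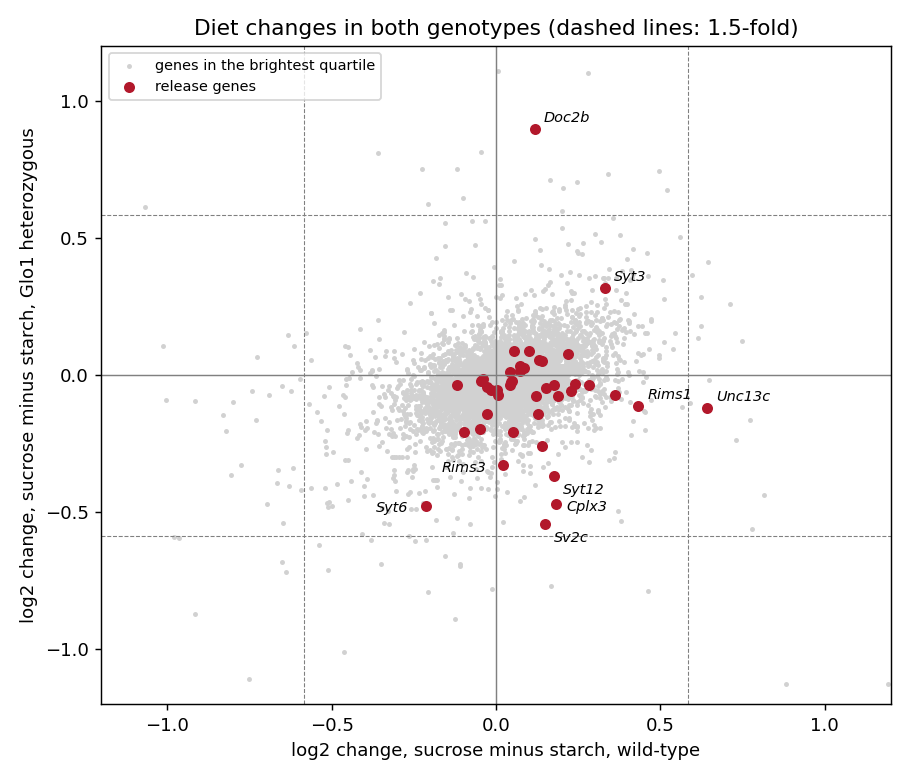
Log2 diet change in wild-type mice (horizontal) and in heterozygous mice (vertical) for the 42 release genes in red and the brightest quartile of genes in grey, with dashed lines at 1.5-fold. Most red points lie right of 0 and at or below 0 vertically; Doc2b is the one red point above the upper dashed line and Syt3 lies up and to the right.

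No array enters the diet changes of both genotypes, and 20 of the 42 genes had the same direction in both (60.3% of all genes, 62.6% of the brightest quartile), 11 higher and 9 lower on sucrose. Nor does one enter the genotype changes of both diets, and 24 of 42 had the same direction (57.4% and 60%), 21 of them lower and 3 higher in heterozygous mice. The difference between the diet changes of the 2 genotypes was negative for 37 of 42 (49.5% and 63.1% were below 0), with a median of -0.11. For 4 of 42 it passed 1.5-fold (8.45% of all genes), Doc2b upward and Unc13c, Sv2c and Cplx3 downward.

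Among the SNARE genes, Vamp1, which encodes the synaptobrevin of fast-firing neurons, varied most. Its levels were 2.87, 3.69, 2.96 and 2.82, so the wild-type sucrose array stood above the other 3, by 0.36 over wild-type starch and by 0.39 over heterozygous sucrose. Its other probe gave 0.03 for the former, which is 0.20 over the mean of both probes, and -0.44 for genotype on sucrose. Stx1a, which encodes the plasma membrane SNARE syntaxin 1A, had levels of 5.08, 5.74, 4.69 and 4.58, with genotype changes of -0.12 (starch) and -0.33 (sucrose). All 4 SNARE genes had a wild-type diet change above 0 and a genotype change on sucrose below 0, which for Vamp2 was -0.02; under quantile or cyclic loess normalisation 3 of 4 were below 0 for the latter, and over the mean of probes 3 of 4 were above 0 for the former. Of the brightest quartile, 55.7% were above 0 for the former and 69.9% below 0 for the latter, and Snap25 was above 0 for the former by 0.00 only, with -0.16 at its second probe. None passed 1.5-fold in any comparison, where 3.97% of all genes did so for genotype on starch and 5.93% for diet in wild-type mice.

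Among the complexins, Cplx3 differed most. Cplx3, a complexin known from retina and from the deepest cortical layer, was measured by 1 probe on chromosome 9 (57449640 to 57449699). Its levels were 0.225, 0.255, 0.211 and 0.152, so the heterozygous sucrose array lay below the other 3. The change was -0.74 for genotype on sucrose, past 1.5-fold (4.58% of all genes passed), -0.47 for diet in heterozygous mice, 0.18 for the wild-type diet change and -0.09 for genotype on starch. Markers of the deepest layer did not move as one, with Ctgf at -0.67 and Nr4a2 at -0.27 for genotype on sucrose and Nxph4 at 0.03 and Moxd1 at 0.20. The summed level of these 4 was 5.41, 5.76, 6.29 and 4.38, lowest on the array where Cplx3 was lowest, and their part in the Cplx3 value was not tested. Cplx1, the complexin of many inhibitory neurons, had levels of 25.1, 27.4, 26.4 and 23.9. Cplx2 had 53.9, 55.8, 51.5 and 50.7, but the files place its 2 probes on different chromosomes, 13 and 19, so these values are uncertain.

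The SNARE disassembly genes differed among themselves. Nsf, the ATPase that separates used SNARE complexes, had levels of 33.1, 35.1, 37.9 and 38.6, with genotype changes of 0.20 (starch) and 0.14 (sucrose). With Doc2b, Amph (0.02) and Syt7 (0.03) it made up the 4 genes above 0 for genotype on sucrose, a number that was 7 under quantile or cyclic loess normalisation and 11 over the mean of probes. Its 3 other probes gave 0.01, -0.05 and 0.18 there. Napb, which encodes the neuronal adaptor beta-SNAP, had levels of 31.8, 29.3, 27.8 and 27.1, with genotype changes of -0.19 (starch) and -0.11 (sucrose). These were -0.10 and -0.03 under quantile normalisation, and its other probe gave 0.08 and 0.04. Napa, which encodes alpha-SNAP, had 24.1, 26.3, 24.5 and 25.5.

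Doc2b had the widest range of all 42 genes. It encodes a high-affinity calcium sensor linked to spontaneous and asynchronous release, and was measured by 1 probe on chromosome 11 (75582645 to 75582704, build mm9), which starts as follows.
A_55_P2143494: cacgaaacaatttttgtaatcttgtctgac
Its levels were 0.945, 1.03, 1.06 and 1.98, so 3 arrays lay close together and the heterozygous sucrose array stood far above them. The change was 0.90 for diet in heterozygous mice (5.57% of all genes passed 1.5-fold) and 0.95 for genotype on sucrose, against 0.12 for the wild-type diet change and 0.17 for genotype on starch. All 8 measured choroid plexus markers were also highest on that array, with a summed level of 0.911, 2.13, 0.861 and 69.9. Their part in the Doc2b value was not tested. Doc2a, the sensor of the same family in excitatory neurons, was lowest on the array where Doc2b was highest, with levels of 2.34, 2.60, 1.98 and 1.91, which is -0.24 for genotype on starch and -0.45 on sucrose.

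The main fast calcium sensors differed little. Syt1, which triggers synchronous release in most forebrain synapses, had levels of 67.0, 66.3, 63.0 and 60.7, and Syt5 had 29.8, 29.9, 27.7 and 26.3. Both were lower on the heterozygous arrays, Syt1 by 0.09 on starch and 0.13 on sucrose, but the 2 other Syt1 probes were higher on heterozygous starch than on wild-type starch, by 0.21 and 0.28. Syt3 had nearly the same diet difference in both genotypes. Its levels were 1.17, 1.47, 1.13 and 1.41, with diet changes of 0.33 (wild-type) and 0.32 (heterozygous). Its second probe gave 0.34 and 0.36.

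Syt6 had the reverse diet pattern. Its levels were 4.58, 3.95, 4.86 and 3.49, with diet changes of -0.21 (wild-type) and -0.48 (heterozygous). The arrays of the 2 diets did not overlap for 10 of the 42 genes, Syt3 and Syt6 among them, against 42.2% of all genes and 41.4% of the brightest quartile. The second probe had 0.624, 0.471, 0.812 and 0.397, with changes of -0.41 and -1.03. Olfactory bulb markers were lower on sucrose in both genotypes too (5 of 5 in each, medians -2.71 and -0.85, summed levels 4.16, 0.962, 4.10 and 2.37), and activity genes such as Fos and Arc likewise (8 of 8 in each, medians -0.69 and -1.02, summed levels 57.1, 38.7, 65.0 and 35.1). Whether they bear on Syt6 was not tested.

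The probes of Syt2, the calcium sensor of fast inhibitory and subcortical synapses, disagreed. By its brightest probe the levels were 0.148, 0.145, 0.133 and 0.129, a range of 0.19. The probe A_51_P330749 gave 0.0157, 0.0293, 0.0559 and 0.0121, with diet changes of 0.89 (wild-type) and -2.20 (heterozygous) and genotype changes of 1.83 (starch) and -1.27 (sucrose). The probe A_55_P2017894 gave 0.0289, 0.0480, 0.0354 and 0.0236, with changes of 0.73, -0.59, 0.29 and -1.03. These last probes are dim, in the lowest quartile of genes by signal, where only 2 repeated probes were there to estimate spot error (SD of a difference 0.14). They shared the signs of the striatum marker medians (0.96, -0.86, 0.69 and -1.26) in all 4 comparisons. The excitatory neuron marker medians (0.22, -0.12, 0.10 and -0.23) had the same signs. The part of either population in these probes was not tested.

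Of the synaptotagmins that bind calcium weakly or not at all, Syt12 had the widest range, with levels of 0.0837, 0.0945, 0.117 and 0.0908, highest on heterozygous starch. Its other probe differed by at most 0.15 and did not share that peak. Syt4 (3.16, 3.10, 2.98 and 2.70) and Syt11 (31.6, 30.6, 29.4 and 29.0) were each lowest on heterozygous sucrose.

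The synapsins, which tether vesicles in the reserve pool, were all highest on wild-type sucrose by their brightest probe, as were 26.6% of all genes and 35.4% of the brightest quartile. Syn1 had levels of 38.8, 44.3, 41.4 and 39.3, and Syn2 had 34.6, 36.0, 31.8 and 33.8. Both other Syn2 probes were highest on heterozygous sucrose, with levels of 2.83, 2.61, 2.58 and 2.97 and of 0.209, 0.226, 0.257 and 0.271. Syn3 had the widest range of the 3, with 0.900, 1.10, 0.940 and 0.916, a wild-type diet change of 0.28 and a genotype change of -0.26 on sucrose. The next brightest Syn3 probe gave -0.24 and 0.12 for the same comparisons, and the mean of its probes -0.01 and 0.02.

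Among vesicle membrane proteins, Sv2c had the widest range, and its probes gave like values in heterozygous mice. SV2C is the member of the SV2 transporter family enriched in basal ganglia. Its levels were 1.64, 1.82, 2.16 and 1.48, highest on heterozygous starch and lowest on heterozygous sucrose, with changes of 0.15 and -0.54 for diet in wild-type and heterozygous mice. The 3 probes well above background gave -0.54, -0.52 and -0.67 for diet in heterozygous mice. The last 2 are dim, with levels of 0.034 and 0.022 on wild-type starch. They lie in the lowest quartile of genes by signal, where 2 repeated probes estimate spot error. Striatum markers also had the opposite sign in the 2 genotypes, with medians of 0.96 and -0.86 for diet. So had excitatory neuron (0.22 and -0.12), pan-neuronal (0.02 and -0.08) and endothelium markers (0.04 and -0.04). The release genes as a list (0.09 and -0.05) likewise changed sign, while inhibitory neuron, oligodendrocyte, astrocyte and microglia markers did not. The part of these populations in Sv2c was not tested. Sv2a, the family member found at nearly all synapses, had levels of 5.99, 5.60, 5.23 and 4.53, with both heterozygous arrays below both wild-type arrays. Sv2b had 9.81, 11.4, 9.61 and 10.1, a wild-type diet change of 0.22 that was 0.62 at its other probe. Syp, the abundant vesicle protein synaptophysin, had 31.9, 35.2, 31.4 and 32.5.

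The Rab3 genes, whose GTPases bring vesicles to the active zone, were each higher on sucrose in wild-type and lower in heterozygous mice by their brightest probe, the latter for 2 of 3 under quantile normalisation and each for 2 of 3 over the mean of probes. Of the brightest quartile, 55.7% were above 0 for the former and 60.1% below 0 for the latter. Rab3b had the widest range, with levels of 7.99, 8.80, 8.88 and 7.43 and changes of 0.14 and -0.26. Rab3c had 17.0, 17.6, 19.7 and 17.1, and Rab3a had 68.2, 74.1, 71.2 and 67.5. By the probes that resemble each other, Rab3a was higher by 0.12 on sucrose in both genotypes and Rab3c lower by 0.09 and 0.20.

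All 8 active zone genes were below 0 for genotype on sucrose, with a median of -0.18, and all 8 had a lower diet change in heterozygous than in wild-type mice, with a median difference of -0.28. Of all genes and of the brightest quartile, 54.9% and 69.9% were below 0 for the former, and 49.5% and 63.1% for the latter. Over the mean of probes 7 of 8 were below 0 for the former. Unc13c, a Munc13 priming factor, was the one past 1.5-fold, by a probe on chromosome 9 (73781310 to 73781369). Its levels were 0.475, 0.742, 0.639 and 0.588, lowest on wild-type starch, and the change for diet in wild-type mice was 0.64. Under normexp background correction it was 0.57 and over the mean of its probes 0.54, both under 1.5-fold. Its other probe gave 0.43 for that comparison, but -0.19 for genotype on starch where the brightest gave 0.43.

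The active zone scaffolds showed smaller values, which their probes shared for Pclo and only in part for the others. Pclo, which encodes the scaffold Piccolo, had levels of 13.3, 15.7, 14.2 and 13.9, and its 3 probes gave wild-type diet changes of 0.24, 0.32 and 0.31 and genotype changes on sucrose of -0.17, -0.18 and -0.18. Rims3, which encodes a short RIM protein, had 18.5, 18.8, 20.2 and 16.1. Its 3 probes gave -0.33, -0.30 and -0.28 for diet in heterozygous mice. However, their wild-type diet changes were 0.02, 0.81 and 0.30 and their genotype changes on starch 0.12, 1.03 and 0.21. The probes other than the brightest were far dimmer, with levels of 0.046 and 0.047 on wild-type starch. Rims1, which encodes the central RIM scaffold, had 1.31, 1.77, 1.59 and 1.47, a change of 0.43 for diet in wild-type mice that its 3 other probes (-0.04, -0.02 and 0.10) did not share. Bsn, the gene of Bassoon, had 10.5, 10.8, 10.4 and 10.2, and its second probe gave a wild-type diet change of 0.39 against 0.05 for the brightest. Unc13a and Unc13b, the other Munc13 genes, ranged over 0.19 and 0.23, and Rims2 over 0.24.

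**Figure D4:**
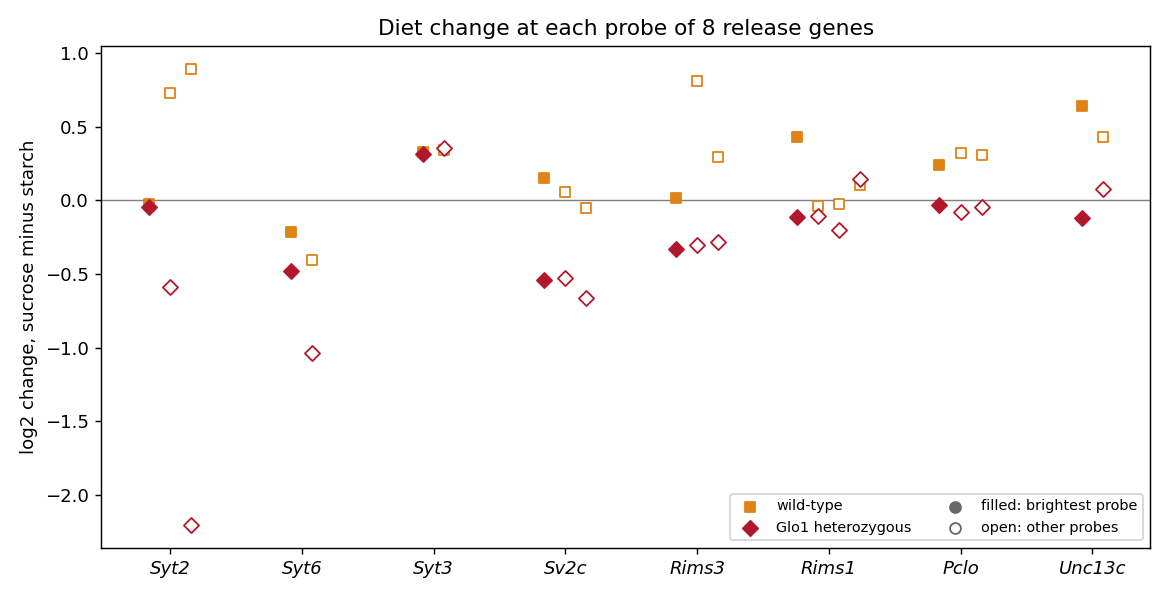
Log2 diet change in wild-type (squares) and heterozygous mice (diamonds) at each probe well above background for 8 genes; filled symbols are the brightest probe. Probes lie close together for Syt3 and Pclo, and far apart for Syt2.

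Both endocytosis genes varied little. Dnm1, which encodes the neuronal dynamin that pinches off vesicles, had levels of 75.2, 77.4, 72.0 and 70.2, and Amph, the gene of amphiphysin, had 28.2, 30.2, 28.8 and 30.5, higher on sucrose by 0.10 and 0.09, which its 2 other probes (0.04 and -0.12, and -0.04 and -0.01) did not share. Over the 28 genes with more than 1 probe, the second brightest probe had the sign of the brightest for 17 in the diet comparison of wild-type mice, 21 in that of heterozygous mice, 14 for genotype on starch and 18 for genotype on sucrose. The sign of a small change was thus often not shared between probes.

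A further 63 genes of release and recycling that are outside the list, such as Cadps and Slc17a7, were all measured. Their medians were 0.08 for diet in wild-type mice (46 of 63 higher, or 73.0%, against 49.9% of all genes and 55.7% of the brightest quartile), 0.00 in heterozygous mice, 0.03 for genotype on starch and -0.07 for genotype on sucrose (44 of 63 lower, or 69.8%, against 54.9% and 69.9%). Of the 63, 2 passed 1.5-fold in any comparison, Syt10 and Slc17a6, against 12.5% of all genes and 1.9% of the brightest quartile. Syt10, a synaptotagmin known from olfactory bulb neurons, had levels of 0.123, 0.0617, 0.132 and 0.0954. Its wild-type diet change was -0.99 and its genotype change on sucrose 0.63. Olfactory bulb markers had medians of -2.71 and 1.56 in these comparisons, and their part in the Syt10 value was not tested. Slc17a6, which encodes a vesicular glutamate transporter of subcortical neurons, had 0.593, 0.458, 0.680 and 0.411, with -0.72 for diet in heterozygous mice.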

How the data were processed

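Per the labels, 200 ng of each RNA pool was labelled with Cy3 for a one-colour Agilent array. The intensity values were deposited by the authors as scanner files of Agilent Feature Extraction 11.5.1.1, run per the file headers with spatial and multiplicative detrending within each array. The deposited ratio values of the series matrix were the processed signal divided by a constant per array, close to its 75th percentile. Levels here are processed signals over the 75th percentile of non-control spots. Outlier spots were left out, and spots of a probe averaged. A gene was its brightest probe among those well above background on all 4 arrays (35477 probes with a symbol). Probe positions are on build mm9 as the files give them; exon and UTR annotation was not used here. Changes are differences of single arrays with no p-value, counted at 1.5-fold. Values on all arrays were given for genes past 1.5-fold, the gene of widest range in each role and Glo1; further genes with values were chosen after their values were seen. The calculation was tested on simulated data. The alternatives were normexp, quantile and cyclic loess normalisation (limma 3.58.1), median scaling, no filter on dim probes, outlier spots kept, the mean of a gene's probes and the series matrix. The genes and lists were chosen with earlier results of these data known.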

Additional observations from a re-analysis of the deposited data

Results flagged for a closer look

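For 3 release genes the diet change had opposite signs in the 2 genotypes and the difference between these changes passed 1.5-fold. With Doc2b, 4 of 42 release genes passed, a share near the 8.45% of all genes. The difference was -0.76 for Unc13c (0.64 in wild-type and -0.12 in heterozygous mice), -0.69 for Sv2c (0.15 and -0.54) and -0.65 for Cplx3 (0.18 and -0.47). With 1 array per group the difference was not tested. It was -0.35 at the other Unc13c probe, where both diet changes were above 0 (0.43 and 0.08). At the 3 Sv2c probes, 2 of them in the lowest quartile of genes by signal, it was between -0.69 and -0.58. The dimmest of these had a wild-type diet change of -0.05. Cplx3 had 1 probe. Doc2b had a difference of 0.78 with the same sign in both genotypes.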

How the results depend on the processing

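No paired analysis was possible because each group has 1 array. Of 8 alternatives, the mean over a gene's probes moved the counts of genes past 1.5-fold most: it gave 0 in place of 1 for diet in wild-type mice, 3 in place of 1 for diet in heterozygous mice (Syt2 at -0.94 and Syt6 at -0.76 were added) and 1 in place of 0 for genotype on starch (Syt2, 0.66), and for genotype on sucrose Syt2 was added at -0.82. Normexp gave 0 for diet in wild-type mice, where Unc13c was at 0.57. Past 2-fold the counts were 0 in all 4 comparisons. Under normexp, quantile, cyclic loess and median scaling Doc2b lay between 0.86 and 0.96 and Cplx3 between -0.79 and -0.62, all past 1.5-fold. The other 4 alternatives left both nearly or wholly as they were and do not bear on these calls. The median for genotype on sucrose lay between -0.20 and -0.10, and that for diet in wild-type mice between 0.09 and 0.15. For the 10 genes of widest range by role, 34 recomputed changes moved beyond the spot error and 366 did not, 19 of the former with the mean of probes. No change past 1.5-fold reversed its sign, but 12 smaller ones did, 6 of them with the mean of probes. Among these were Syn3 for diet in wild-type mice (0.28 to -0.01) and genotype on sucrose (-0.26 to 0.02), Vamp1 for genotype on starch (0.04 to -0.15), and under quantile normalisation Dnm1 (-0.04 to 0.08) and Napb (-0.04 to 0.03) for diet in heterozygous mice.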
